A study of Mus musculus with 12 samples.

Results

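The genes described here are 10 genes of the retinal blood vessels and of the vascular endothelial growth factor (VEGF) pathway. They are Plvap, Cldn5, Pecam1, Cdh5, Kdr, Flt1, Tek, Pdgfrb, Vegfa and Vegfb. They were taken by symbol, and each had 1 entry among the 56748 of a scaled count table and 1 among the 55372 of a table of TPM, an abundance corrected for transcript length. Both tables cover 12 mouse libraries in 4 groups of 3. The retinas came from 2-month-old mice and were flash-frozen, and cycloheximide had been perfused first to stall ribosomes on mRNA. All mice carried the RiboTag allele, which tags a ribosomal protein in cells where Cre has acted, and i75-Rod-Cre, a transgene that drives Cre in rod photoreceptors. Control mice (RiboTag;i75-Rod-Cre, labelled Abca4+/+) were littermates with both alleles. Abca4Ko mice (RiboTag;Abca4-/-;i75-Rod-Cre) in addition lacked Abca4, the gene of a retinoid transporter of photoreceptor outer segments. From each genotype, libraries were made from the whole retina lysate (retina) and from the tagged ribosomes pulled out of it (rod TRAP, translating ribosome affinity purification). The labels do not say whether the 3 libraries of a group came from separate animals, so p-values measure the spread between these libraries, which may be technical.

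Scaled counts are read counts that the authors brought to a common total within each fraction, 17096515 to 17097707 per rod TRAP library and 17860761 to 17862326 per retina library. TPM is the scale used to compare genes with each other. The sample labels name the pulled-down material Rod PR, whereas the protocol text names its cDNA input EC-TRAP. The rod marker list (9 genes, such as Gnat1) summed to 91608 to 102500 TPM in rod TRAP and 37800 to 52396 TPM in retina. The endothelial list (23 genes besides the 10 described) summed to 1.8 to 5.7 TPM in rod TRAP and 31.7 to 102 TPM in retina. The markers thus went with the sample labels. The deleted gene Abca4 had 53193 to 61017 scaled counts in control rod TRAP, but 195, 365 and 13156 in Abca4Ko rod TRAP and 153, 366 and 8124 in Abca4Ko retina. The libraries labelled Abca4Ko replicate 3 therefore went against their label, and results for the 10 genes are also given without them. Abca4Ko retina replicate 1 stood low in vascular genes, as described with the retina results.

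The inner retina is fed by vessels whose endothelial cells are sealed by tight junctions and wrapped by pericytes, which together form the inner blood-retina barrier. The outer retina, where the rods lie, has no vessels of its own and is fed by the fenestrated capillaries of the choroid behind the retinal pigment epithelium (RPE). VEGF-A is a secreted ligand made by neurons, glia and RPE under the control of oxygen-sensing transcription factors, and it acts on endothelial receptors to drive vessel growth and permeability. Among the genes described, Plvap encodes the diaphragm protein of fenestrae and caveolae and is low in barrier endothelium, Cldn5 the main claudin of endothelial tight junctions, Cdh5 the endothelial adherens junction cadherin, and Pecam1 an adhesion protein of endothelium, platelets and leukocytes. Kdr (VEGFR2) is the main signalling receptor of VEGF-A, Flt1 (VEGFR1) binds VEGF-A and VEGF-B and can act as a decoy, and Tek (TIE2) is the angiopoietin receptor. Pdgfrb is the receptor by which endothelial PDGF-B recruits pericytes.

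The sequences before the starts of the receptor genes Kdr and Flt1 and of the ligand genes Vegfa and Vegfb are shown because the receptors were far lower in rod TRAP than in retina while the ligands were less far apart. They are the 250 bases before the start in RefSeq (GRCm38.p6), a build that differs from the GRCm39 named in the labels, so no positions are joined to the measured values. The RefSeq promoter table held 6 of the 10 genes, with 7 windows since Vegfa had 2, and the first is printed. Capitals mark matches on either strand to the GC box (GGGCGG) and the TATA box (TATAAA), and the matches of neighbouring GC boxes can touch or overlap.
Kdr, chr5:75978456-75978705, minus strand: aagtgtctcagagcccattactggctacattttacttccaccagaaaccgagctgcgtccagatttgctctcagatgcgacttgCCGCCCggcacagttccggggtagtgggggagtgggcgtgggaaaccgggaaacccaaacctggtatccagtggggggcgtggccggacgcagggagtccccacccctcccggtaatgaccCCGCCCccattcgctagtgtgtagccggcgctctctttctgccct
Flt1, chr5:147726012-147726261, minus strand: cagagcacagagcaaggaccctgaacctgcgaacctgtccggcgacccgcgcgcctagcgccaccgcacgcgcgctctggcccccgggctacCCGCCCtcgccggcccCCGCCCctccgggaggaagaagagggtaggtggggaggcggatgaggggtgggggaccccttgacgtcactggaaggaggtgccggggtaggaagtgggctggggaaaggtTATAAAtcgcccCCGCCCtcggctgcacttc
Vegfa, chr17:46032378-46032627, minus strand: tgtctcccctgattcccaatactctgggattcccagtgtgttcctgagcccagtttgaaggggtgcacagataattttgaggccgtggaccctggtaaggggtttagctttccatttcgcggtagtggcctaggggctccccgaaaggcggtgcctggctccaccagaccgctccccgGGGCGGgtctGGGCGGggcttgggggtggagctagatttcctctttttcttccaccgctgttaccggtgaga
Vegfb, chr19:6987652-6987901, minus strand: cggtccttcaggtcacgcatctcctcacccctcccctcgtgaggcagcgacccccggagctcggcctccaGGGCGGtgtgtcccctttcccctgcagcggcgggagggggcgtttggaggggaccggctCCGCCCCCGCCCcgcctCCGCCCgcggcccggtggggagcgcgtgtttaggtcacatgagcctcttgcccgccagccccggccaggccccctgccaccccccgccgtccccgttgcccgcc
GC boxes numbered 2 in Kdr, 3 in Flt1, 2 in Vegfa and 4 in Vegfb, and 32.7% of all 32851 promoters in the table held at least 1. A TATA box was found only in the window of Flt1 among the 7, 31 bases before the start, against 12.4% of all promoters. The hypoxia response core (ACGTG) was absent from these 4 windows, and 16.6% of all promoters held it. The other Vegfa window, chr17:46025164-46025413 on the minus strand, held 1 match. That window lies downstream of the printed Vegfa start, and whether its match acts in a promoter was not tested. Both ETS motifs searched, ACAGGAAG and CCGGAAGT, were absent from all 7 windows and present in 2.90% and 2.88% of promoters. The share of G and C was 61.6% in Kdr, 70.4% in Flt1, 59.2% in Vegfa and 76.4% in Vegfb.

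The first question was how strongly the 10 genes were expressed in the retina. Vegfb, a ligand of Flt1 known for roles in vessel survival and lipid uptake, was at 84.4, 97.2 and 107 TPM in the 3 control retina libraries and stood above all the others. Vegfa followed at 36.9 ± 10.0 TPM (mean ± SD, n = 3 here and below) and overlapped with Kdr at 30.0 ± 12.2 TPM. Flt1 (9.57 ± 4.44), Cldn5 (9.00 ± 3.06) and Plvap (8.67 ± 1.79) overlapped with each other. Pdgfrb (4.37 ± 0.945) and Pecam1 (3.77 ± 0.850) formed the next overlapping pair, and Cdh5 (0.833 ± 0.252) and Tek (0.600 ± 0.173) the lowest. The endothelial receptor and junction genes were thus spread over a wide range of TPM. Abca4Ko retina had a similar order, with Vegfb at 92.8 ± 6.61 TPM, Vegfa at 41.6 ± 14.3, Kdr at 40.0 ± 21.5 and Tek lowest at 0.667 ± 0.577, and in it each neighbour from Vegfa down to Pecam1 overlapped with the next.

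In control rod TRAP the order was different below the ligands. Vegfb (21.0 ± 1.99 TPM) and Vegfa (16.2 ± 0.693 TPM) again stood highest. Plvap came next at 3.8, 3.3 and 2.3 TPM and overlapped with Pecam1 at 1.8, 2.1 and 2.4 TPM. Kdr was at 0.6, 1.1 and 0.7 TPM, Flt1 at 0.1, 0.3 and 0.4 TPM, and Pdgfrb, Cldn5, Tek and Cdh5 at 0.1 TPM or less in every library. In Abca4Ko rod TRAP, Vegfb was at 27.7 ± 1.36 TPM, Vegfa at 11.3 to 15.6 TPM, Pecam1 at 0.8 to 2.4 TPM, Kdr at 1.13 ± 0.321 and Plvap at 0.700 ± 0.265, with overlap among these last 3.

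**Figure D1:**
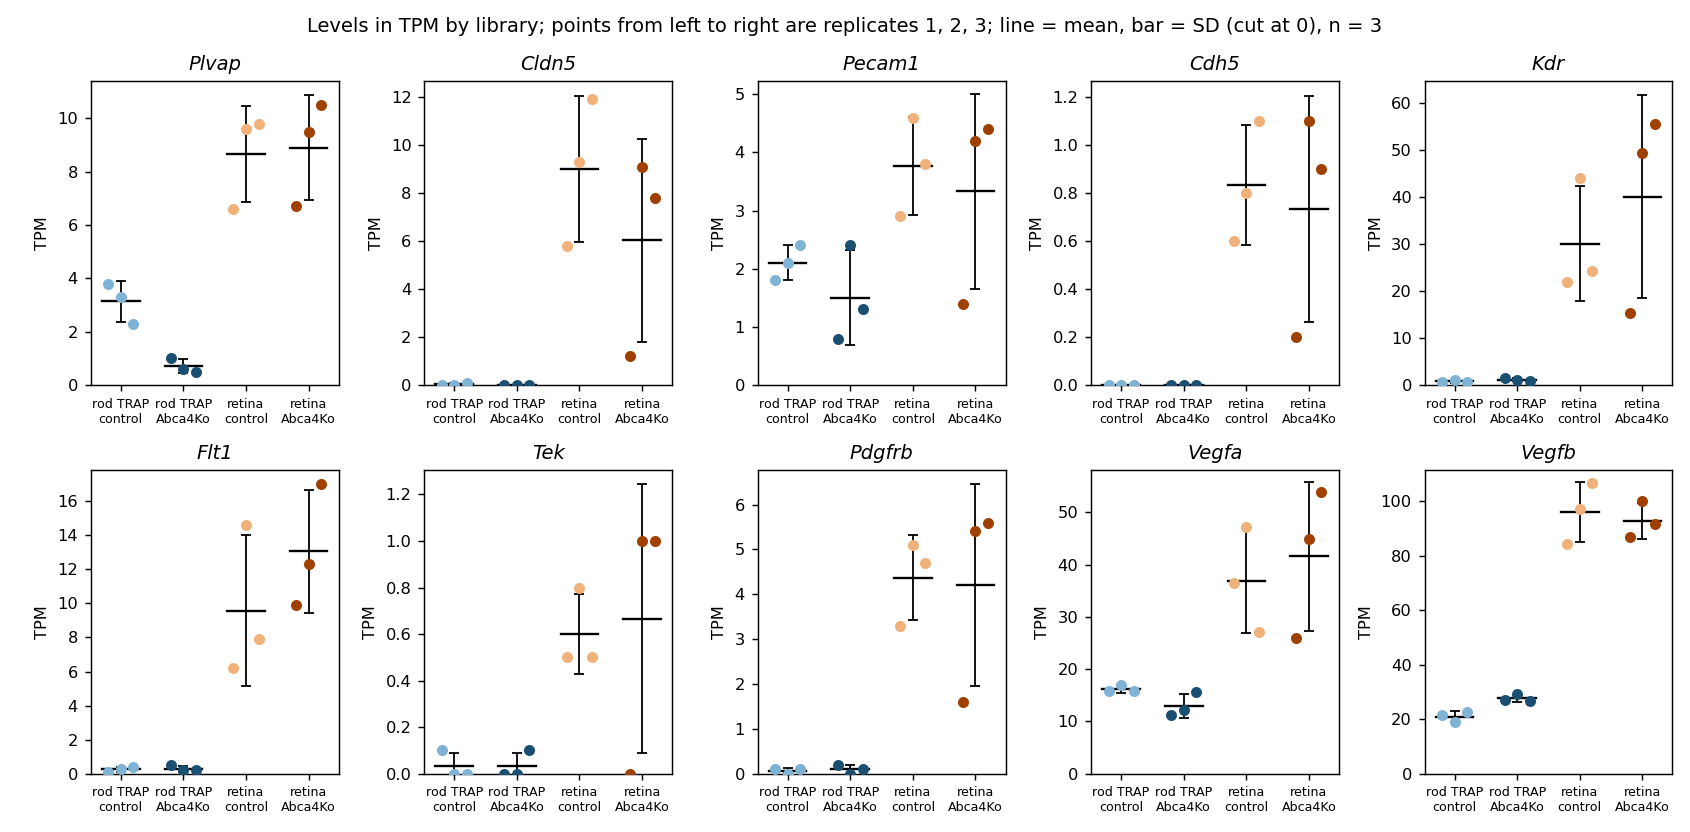
Levels of the 10 genes in TPM (vertical axis, from 0, with its own range for each gene) in the 3 libraries of each of the 4 groups. Points from left to right are replicates 1 to 3, lines are means and bars the SD, cut at 0. Rod TRAP points of Cldn5, Cdh5, Tek and Pdgfrb lie at or next to 0, those of Plvap are lower in Abca4Ko (0.5 to 1 TPM) than in control (2.3 to 3.8 TPM), and Abca4Ko retina replicate 1 is the lowest retina point of Cldn5, Tek and Pdgfrb, among others.

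The second question was how far the rod pull-down removed each gene from the retina background. Differences were tested with limma on log2(CPM + 0.5), where CPM is the scaled count divided by the rescaled library total and multiplied by 1000000. A gene was tested where at least 3 libraries had 10 or more scaled counts, and called at a Benjamini-Hochberg adjusted p (limma adjusted p) under 0.05 over all genes tested. All 10 genes were tested in control, and 9 were called lower in rod TRAP, where 38.8% of the 16286 genes tested were called lower, 36.6% higher and 75.4% in either direction. This count is no support by itself, since Cldn5, Cdh5, Tek and Pdgfrb had under 10 scaled counts in every control rod TRAP library and passed the filter through the retina alone. In bulk samples such as these, fewer cells of a type and less RNA per cell cannot be told apart.

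The VEGF receptors had the largest fitted differences. Kdr had 29, 58 and 41 scaled counts in control rod TRAP and 1566, 2833 and 1734 in control retina. Its log2 difference was −4.66 (SE 0.23, limma adjusted p = 2.32e-09), a fold of 25.2. Flt1 had 6, 19 and 23 scaled counts against 519, 1084 and 648. Its log2 difference was −4.37 (SE 0.31, limma adjusted p = 4.74e-08). Every rod TRAP library was far below every retina library for both receptors.

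The junction genes, Tek and the pericyte receptor Pdgfrb were near the limit of counting in rod TRAP. Cldn5 had 0, 0 and 1 scaled counts in control rod TRAP and 86, 122 and 178 in retina, a ratio of 369 with an exact 95% counting interval of 65.9 to 14631. Cdh5 had 0, 0 and 1 against 29, 35 and 52, a ratio of 111 (interval 19.5 to 4423). Tek had 2, 1 and 0 against 28, 39 and 30, a ratio of 30.9 (interval 10.3 to 153). Pdgfrb had 3, 1 and 6 against 219, 299 and 305, a ratio of 78.8 (interval 42.6 to 165), where the same ratio was 45.9 for Kdr and 44.9 for Flt1. These intervals treat scaled counts summed over the 3 libraries as reads and cover counting error only. The fitted log2 differences were −4.12 for Pdgfrb, −3.53 for Cldn5, −2.07 for Cdh5 and −1.76 for Tek. All were called (highest limma adjusted p = 2.06e-06), which is no support by itself, since these genes passed the filter through the retina alone. These fitted values are shrunk by the 0.5 added to each CPM. The ratios use the authors' totals and the fits rescaled totals, so they are not on the same scale. For Kdr the ratio was 45.9 and the fitted fold 25.2.

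The ligands and the remaining endothelial genes were less far from the retina. Vegfb, with 191, 168 and 213 scaled counts in control rod TRAP against 1048, 1075 and 1311 in retina, differed by −1.84 (SE 0.15, limma adjusted p = 2.02e-07). Plvap, with 62, 53 and 38 against 154, 194 and 223, differed by −1.10 (SE 0.21, limma adjusted p = 4.16e-04). Vegfa, with 405, 402 and 386 against 1006, 1245 and 896, differed by −0.67 (SE 0.13, limma adjusted p = 4.72e-04). The fractions did not overlap for any of these 3 genes, as for 79.7% of all genes tested (40.6% with rod TRAP lower, 39.1% with it higher). Pecam1 had 51, 62 and 78 scaled counts against 111, 164 and 145, a log2 difference of −0.39 (SE 0.20, limma adjusted p = 0.0986), and was not called. After rescaling, its libraries overlapped between the fractions. It passed when only the authors' own scaling was used (−0.98, limma adjusted p = 0.00130), and also with median of ratios scaling (0.0486) and on log2(TPM + 1) (0.0280). The median over all genes was −0.029 in control and 0.0044 in Abca4Ko, and became −0.62 and −0.49 with the authors' scaling. The lower share of calls was 51.4% in control and 52.6% in Abca4Ko, and became 73.7% and 77.4% with that scaling, while with log2(TPM + 1) these shares were 68.1% and 70.2%.

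Put as a share of the retina level in TPM, control rod TRAP held 55.8% of Pecam1, 43.9% of Vegfa, 36.2% of Plvap and 21.8% of Vegfb. It held 2.79% of Flt1, 2.66% of Kdr, 1.53% of Pdgfrb and 0.370% of Cldn5, and Cdh5 was listed at 0 TPM. The endothelial genes Plvap, Pecam1, Cldn5 and Cdh5 therefore did not keep the same proportions in the fractions. Over the 3 control rod TRAP libraries there were 153 scaled counts of Plvap and 191 of Pecam1 for 1 each of Cldn5 and Cdh5, whereas control retina had 571 of Plvap, 420 of Pecam1, 386 of Cldn5 and 116 of Cdh5. The markers of other cells that could carry Pecam1 were also above 0 in rod TRAP, with the microglia list (9 genes) at 28.3 to 30.8 TPM in control rod TRAP against 103 to 133 TPM in control retina and the blood list (5 genes) at 11.1 to 33.1 TPM against 541 to 1235 TPM, and their part in these values was not tested.

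The same comparison in Abca4Ko mice used separate libraries. There 8 of the 10 genes were tested and 7 were called lower, where 33.7% of 16036 genes were called lower, 30.4% higher and 64.1% in either direction. The fractions did not overlap for these 7 genes, with rod TRAP lower, as for 35.7% of all genes with rod TRAP lower and 69.4% in either direction. Cldn5 and Pdgfrb passed the filter through the retina alone, so neither their calls nor their lack of overlap is support by itself. Flt1 differed by −4.71 (SE 0.29, limma adjusted p = 2.91e-07), Kdr by −4.61 (SE 0.34, limma adjusted p = 9.60e-07) and Pdgfrb by −3.81 (SE 0.38, limma adjusted p = 8.29e-06). Vegfb differed by −1.46 (SE 0.17, limma adjusted p = 2.09e-05) and Vegfa by −1.40 (SE 0.22, limma adjusted p = 2.11e-04). Cldn5 and Cdh5 had 0 scaled counts in all 3 Abca4Ko rod TRAP libraries, so with the floor of 3 counts over the group they were at least 79.8-fold and at least 31.3-fold lower than in retina. These bounds, like the ratios, use the authors' totals without rescaling. Tek, with 3 scaled counts against 99, had a ratio of 31.6 (interval 10.5 to 156).

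Plvap had 17, 10 and 8 scaled counts in Abca4Ko rod TRAP against 159, 204 and 224 in Abca4Ko retina, a log2 difference of −2.87 (SE 0.25, limma adjusted p = 3.03e-06), and held 7.87% of its retina TPM. Pecam1 had 27, 67 and 38 against 58, 118 and 160, a difference of −0.64 (SE 0.34, limma adjusted p = 0.127). It was called when libraries of the same number were paired by a replicate block (limma adjusted p = 0.0248), and also without rod TRAP replicate 2 (−0.94, 0.0373) or without retina replicate 1 (−1.01, 0.0273). With the authors' scaling alone all 8 genes tested were called lower, Pecam1 among them. Without both libraries labelled Abca4Ko replicate 3, 7 genes were again called, among them Plvap at −2.68 (limma adjusted p = 1.42e-04) and Vegfa at −1.56 (limma adjusted p = 3.45e-04), while Pecam1 was at −0.35 (limma adjusted p = 0.529).

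**Figure D2:**
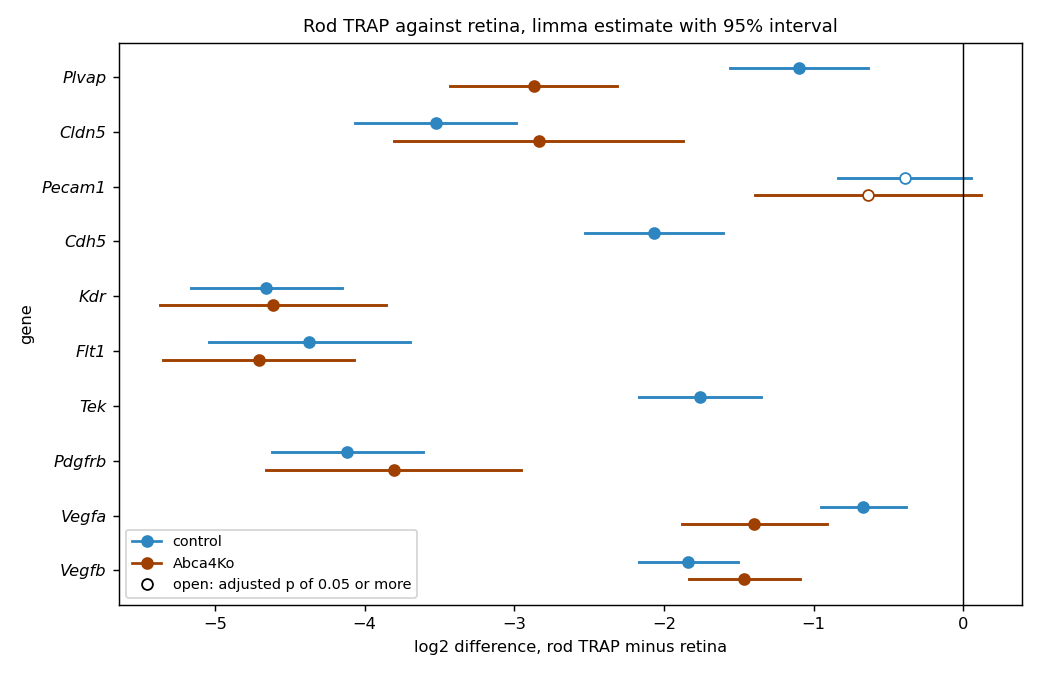
Log2 difference between rod TRAP and retina (horizontal axis, rod TRAP minus retina, scaled counts) for each gene in control and Abca4Ko, with the 95% interval of the limma fit from 6 libraries per genotype. Filled points have a limma adjusted p under 0.05, and Cdh5 and Tek were not tested in Abca4Ko. The receptors Kdr, Flt1 and Pdgfrb lie between −4.71 and −3.81, Pecam1 crosses 0 in both genotypes, and Plvap is at −1.10 in control and −2.87 in Abca4Ko.

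The third question was whether any of the genes differed between Abca4Ko and control within rod TRAP. In these libraries 6 of the 10 passed the filter, and 1 was called, where 1.13% of the 13104 genes tested were called (0.397% lower and 0.733% higher). That gene was Plvap. The 10 genes were chosen with earlier results of these data known, so this count cannot be weighed against the share over all genes. Control libraries had 62, 53 and 38 scaled counts and Abca4Ko libraries 17, 10 and 8, so that the groups did not overlap, as for 17.6% of all genes tested (9.07% with Abca4Ko lower, 8.55% with it higher). The log2 difference was −1.55 (SE 0.25, limma adjusted p = 0.0155), with a 95% interval of −2.10 to −1.0. In TPM the means were 0.700 ± 0.265 in Abca4Ko and 3.13 ± 0.764 in control.

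The call for Plvap was lost without any one of the control libraries and on the TPM scale. Leaving out control replicate 1, 2 or 3 gave limma adjusted p = 0.113, 0.121 and 0.0512 at log2 differences of −1.42, −1.52 and −1.72, and log2(TPM + 1) gave 0.0923 at −1.28. It remained called without each Abca4Ko library, including the one labelled Abca4Ko replicate 3 (−1.41, limma adjusted p = 0.0296), and in the fit of all 12 libraries (0.00261). Of the 23 genes of the endothelial list, 1 passed the filter in rod TRAP. It summed to 2.1, 5.7 and 2.3 TPM in control and 1.8, 3.3 and 2 TPM in Abca4Ko, with 11 and 10 of its genes at 0 TPM in every library of the group. The RPE list (9 genes) summed to 4.9, 8.9 and 14.9 TPM in control and 6.9, 8.9 and 8.2 TPM in Abca4Ko, and the fibroblast list (5 genes) to at most 0.9 TPM. The sums of these lists overlapped between the genotypes, and their part in the Plvap values was not tested.

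The ligands gave smaller differences that did not pass over all genes. Vegfb had 191, 168 and 213 scaled counts in the controls and 283, 264 and 244 in Abca4Ko. Vegfb did not overlap between the groups, as for 8.55% of all genes tested with Abca4Ko higher. Its log2 difference was 0.46 (SE 0.14, unadjusted p = 0.00621 and limma adjusted p = 0.207). Vegfa had 405, 402 and 386 scaled counts in the controls and 215, 287 and 417 in Abca4Ko, and the highest Abca4Ko library was the one labelled replicate 3. Its log2 difference was −0.41 (SE 0.17, limma adjusted p = 0.439) with all libraries and −0.63 (SE 0.13, limma adjusted p = 0.0454) without that library, where it was called. Vegfb was not called without it (0.53, limma adjusted p = 0.182).

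The receptors and Pecam1 were low and overlapped between the genotypes in rod TRAP. Pecam1 had 51, 62 and 78 scaled counts in the controls and 27, 67 and 38 in Abca4Ko, and differed by −0.51 (SE 0.26, limma adjusted p = 0.535). Kdr had 29, 58 and 41 in control and 85, 52 and 44 in Abca4Ko, and differed by 0.43 (SE 0.28, limma adjusted p = 0.637). Flt1 had 6, 19 and 23 in control and 34, 12 and 14 in Abca4Ko, and differed by 0.23 (SE 0.36, limma adjusted p = 0.867). The 95% intervals were −1.08 to 0.060 for Pecam1, −0.18 to 1.05 for Kdr and −0.57 to 1.02 for Flt1, so differences inside these bounds could not be told from 0. Cldn5, Cdh5, Tek and Pdgfrb had between 0 and 9 scaled counts in every rod TRAP library and were not tested.

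**Figure D3:**
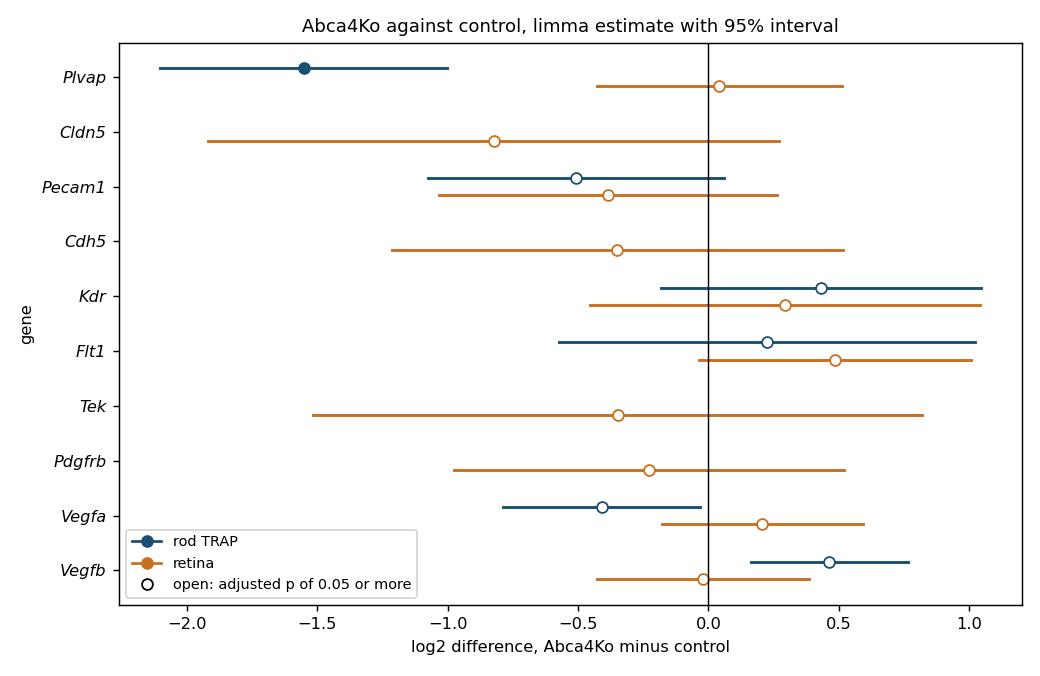
Log2 difference between genotypes (horizontal axis, Abca4Ko minus control, scaled counts) for each gene in rod TRAP and in retina, with the 95% interval of the limma fit from 6 libraries per fraction. Filled points have a limma adjusted p under 0.05, and genes with no rod TRAP point did not pass the filter there. Plvap in rod TRAP (−1.55) is the 1 filled point, and its retina estimate is 0.042.

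In retina all 10 genes were tested and 0 were called between the genotypes, with 0 at an unadjusted p under 0.05, where 0.106% of 16964 genes were called (0.0177% lower and 0.0884% higher). Plvap had 154, 194 and 223 scaled counts in the controls and 159, 204 and 224 in Abca4Ko, a log2 difference of 0.042 (SE 0.21, 95% interval −0.43 to 0.51). Vegfb was as close, at −0.020 (SE 0.18, interval −0.43 to 0.39), and Vegfa was at 0.21 (SE 0.17, interval −0.18 to 0.59). The genotypes overlapped for all 10 genes, against 19.9% of genes tested whose groups did not (9.47% with Abca4Ko lower, 10.4% with it higher). Flt1 had 519, 1084 and 648 scaled counts in the controls and 842, 951 and 1256 in Abca4Ko, a difference of 0.49 (SE 0.24, limma adjusted p = 0.423). Kdr had 1566, 2833 and 1734 in control and 1173, 3363 and 3567 in Abca4Ko, a difference of 0.29 (SE 0.34, limma adjusted p = 0.694). Pecam1 had 111, 164 and 145 in control and 58, 118 and 160 in Abca4Ko, a difference of −0.39 (SE 0.29, limma adjusted p = 0.558).

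For the junction genes, Tek and Pdgfrb the lowest retina value was in the same Abca4Ko library. Cldn5 had 86, 122 and 178 scaled counts in the controls and 19, 127 and 104 in Abca4Ko, a log2 difference of −0.82 (SE 0.49, limma adjusted p = 0.475). Pdgfrb had 219, 299 and 305 in control and 108, 334 and 332 in Abca4Ko (−0.23, SE 0.34, limma adjusted p = 0.760). Tek had 28, 39 and 30 in control and 2, 45 and 52 in Abca4Ko (−0.35, SE 0.53, limma adjusted p = 0.767). Cdh5 had 29, 35 and 52 in control and 9, 49 and 40 in Abca4Ko (−0.35, SE 0.39, limma adjusted p = 0.684). In each case Abca4Ko replicate 1 was the lowest of the 6 libraries, and the other Abca4Ko libraries lay within or above the control range. Without it the difference was −0.17 for Cldn5, and those of Cdh5, Tek and Pdgfrb turned to 0.13, 0.42 and 0.21, with 0 of the 10 genes called and 1 at an unadjusted p under 0.05. Without the library labelled Abca4Ko replicate 3, 0 of the 10 were called and 0 had an unadjusted p under 0.05, with Cldn5 at −1.07, Tek at −0.75, Pecam1 at −0.62, Cdh5 at −0.51, Pdgfrb at −0.43, Flt1 at 0.38, Vegfa at 0.13, Vegfb at 0.094, Kdr at 0.071 and Plvap at −0.0019.

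Abca4Ko retina replicate 1 was then compared with the median of the other 5 retina libraries. It was the lowest library for 6 of the 10 genes, where it was the lowest for 26.7% of all genes. Its log2 difference from the median was −1.97 for Cldn5, −1.87 for Tek, −1.22 for Pdgfrb, −1.16 for Cdh5, −1.02 for Pecam1 and −1.0 for Kdr. Plvap (−0.12), Flt1 (0.061), Vegfa (−0.19) and Vegfb (0.27) were closer to the median on this scale. In TPM, however, Vegfa was lowest in this library (25.9 against 27.1 to 53.9 TPM in the others). Plvap was at 6.7 TPM in it, next to the lowest value of 6.6 TPM in control replicate 1. Among endothelial genes it was lowest for 20 of the 22 above the filter, with a median of −0.94, and among mural genes for 10 of 14, with a median of −1.04, against 0.013 for all genes. Acta2, the actin of smooth muscle, had 21 scaled counts in it and 543 to 1616 in the other 5. The fibroblast list was at −1.74, the bipolar list at −0.77, the RPE list at −0.69, the other neuron lists and the Müller glia and microglia lists between −0.39 and −0.23, and the astrocyte, blood and rod lists at 0.21, 0.65 and 0.68, and their part in these values was not tested. Between genotypes all 9 RPE and all 5 blood genes had a negative estimate in retina, with medians of −0.73 and −0.93, of which limma called 0 (0 and 4 had an unadjusted p under 0.05). So had all 5 fibroblast (median −0.61), 19 of 22 endothelial and 7 of 9 microglia genes, while 5 of 6 amacrine genes had a positive one. Control replicate 3 stood high in the RPE and blood lists (0.70 and 1.32), and control replicate 1 in the blood list (1.42).

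The receptors did not always go with the junction genes in the other retina libraries. Control replicate 3 was above the median of the others for Cldn5 (0.88) and Cdh5 (0.54) and below it for Kdr (−0.60), Flt1 (−0.53) and Vegfa (−0.37). Abca4Ko replicates 2 and 3 were above it for Kdr (0.87 and 0.86) and for Vegfa (0.28 and 0.33), with Cldn5 at 0.35 and −0.27. The amacrine list (6 genes), summed in TPM, was 320, 514 and 373 in control and 217, 467 and 553 in Abca4Ko, and Kdr was 21.9, 44.0 and 24.2 TPM in control and 15.4, 49.2 and 55.4 TPM in Abca4Ko. Both were lowest in Abca4Ko replicate 1 and highest in Abca4Ko replicate 3, and control replicate 2 and Abca4Ko replicate 2 changed places between the orders. The horizontal cell list had the same lowest and highest libraries (12.6 and 27.8 TPM). So did the growth factor (13.8 and 41.1 TPM), norrin (181 and 309 TPM) and hypoxia (543 and 731 TPM) lists described below. The match with Kdr was therefore not particular to neuron lists, and not every neuron list shared it. The bipolar list was highest in Abca4Ko replicate 2 (1159 TPM) and the ganglion cell list in control replicate 2 (978.5 TPM). The part of amacrine and horizontal cells in the Kdr values was not tested.

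**Figure D4:**
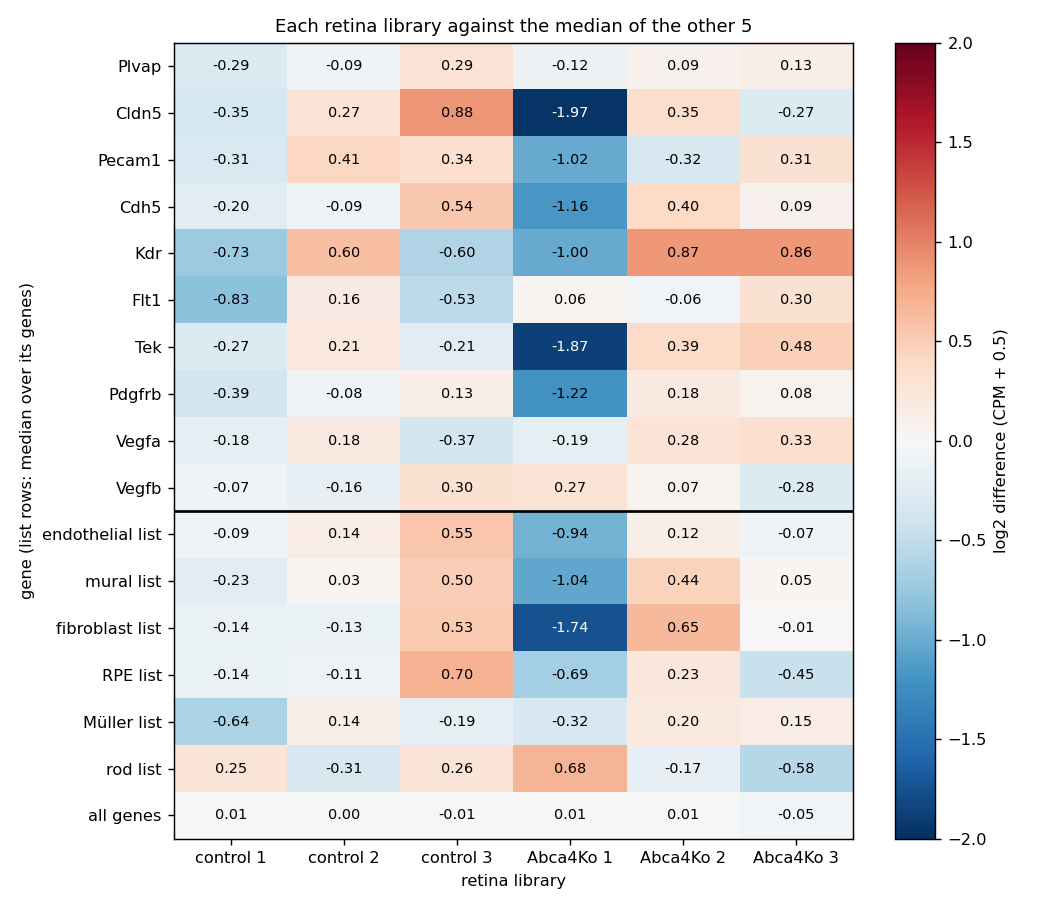
Each retina library (columns) against the median of the other 5, as a log2 difference of CPM + 0.5 (colour and printed value), for the 10 genes above the line and for the medians of 6 marker lists and all genes below it. Abca4Ko 1 is blue for Cldn5 (−1.97), Tek (−1.87) and the fibroblast list (−1.74) but not for Plvap (−0.12) or Flt1 (0.061).

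Plvap is used as a marker of fenestrated and Cldn5 of barrier endothelium, so their ratio was compared within each retina library. Whether the Plvap reads here came from endothelium was not tested. Control rod TRAP held 36.2% of the retina TPM of Plvap but 0.370% of that of Cldn5. On the log2 scale the Plvap level exceeded that of Cldn5 by 0.78, 0.63 and 0.31 in control and by 2.59, 0.65 and 1.04 in Abca4Ko. The means were 0.57 ± 0.24 in control and 1.43 ± 1.03 in Abca4Ko (SD, n = 3 each). The difference was 0.85 (two-sided exact permutation p = 0.2), and since the smallest p that 20 splits allow is 0.1 this design could not reach a p of 0.05. The highest value was that of Abca4Ko replicate 1, and the difference was 0.27 without it and 1.04 without Abca4Ko replicate 3. In Abca4Ko replicate 1, Cldn5 was at −1.97 and Plvap at −0.12 from the median of the other retina libraries. The ratio therefore cannot be read as the kind of endothelium alone.

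A fit of all 12 libraries tested whether the genotype difference depended on the fraction. By limma 0 of the 10 genes were called, against 1 of 17273 genes (0.00579%), and 1952 genes, among them Plvap and Vegfa, had an unadjusted p under 0.05. The interaction was −1.69 for Plvap (SE 0.32, interval −2.38 to −0.998, unadjusted p = 1.09e-04, limma adjusted p = 0.407, and 0.133 with same-numbered libraries paired) and −0.64 for Vegfa (SE 0.27, unadjusted p = 0.0294, limma adjusted p = 0.417). For Vegfb it was 0.46 (SE 0.22, limma adjusted p = 0.455). Without both libraries labelled Abca4Ko replicate 3 the value for Plvap was −1.51 (limma adjusted p = 0.713). The difference between the fractions in the genotype effect on Plvap thus did not pass adjustment over all genes.

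Further endothelial genes were followed in a list of 23. In control 19 were tested between fractions and 19 were called lower in rod TRAP, and in Abca4Ko 12 of 12, but 18 and 11 of these had under 10 scaled counts in every rod TRAP library. Over all genes tested, here and for the lists below, 38.8% were called lower and 36.6% higher in control, and 33.7% and 30.4% in Abca4Ko. The 4 with the highest TPM were Ly6c1, a surface protein of endothelium and leukocytes, Egfl7, a secreted endothelial factor, Esam, an endothelial adhesion molecule, and Itm2a. Ly6c1 had 89, 113 and 142 scaled counts in control retina and 0 in all 6 rod TRAP libraries. Egfl7 had 83, 84 and 121 in control retina and at most 1 in rod TRAP, although TPM lists 1.3 for control rod TRAP replicate 1, where its scaled count was 0. Between genotypes 22 were tested in retina and 1 in rod TRAP, 0 were called, and 4 and 0 had an unadjusted p under 0.05. Over all genes tested, 0.106% were called in retina and 1.13% in rod TRAP. The median log2 difference in retina was −0.38, against −0.022 for all genes, and ranged from −0.55 without Abca4Ko replicate 3 to −0.067 without Abca4Ko replicate 1. The fit of all 12 libraries called 1 of the 22 lower in retina, against 16 of all 17273 genes.

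The mural list holds 14 genes of pericytes and smooth muscle. In control rod TRAP, 10 of 11 tested were called lower and 1 higher, and in Abca4Ko 4 of 8 lower and 1 higher, but 8 and 4 of the genes tested had under 10 scaled counts in every rod TRAP library. The gene that was higher was Vtn, which encodes vitronectin and is also made by photoreceptors. It was at 2540 ± 12.3 TPM in control rod TRAP and 1517 ± 150 TPM in control retina, a log2 difference of 1.07 (SE 0.14, limma adjusted p = 1.56e-05), and 0.42 with the authors' scaling. Without Vtn the list summed to 0.5 to 3.8 TPM in rod TRAP and 13.4 to 150 TPM in retina. Rgs5, a pericyte regulator of G proteins, differed by −2.72 (SE 0.22, limma adjusted p = 1.67e-07), and Acta2 by −5.03 (SE 0.43, limma adjusted p = 4.60e-07) in control. Tagln, a smooth muscle cytoskeletal protein, did not pass the filter in control. Between genotypes 0 of 2 genes in rod TRAP and 0 of 14 in retina were called, with 0 and 1 at an unadjusted p under 0.05.

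The growth factor list holds 17 other ligands and receptors of the VEGF, angiopoietin, PDGF and Notch pathways, among them Tie1, which is also an endothelial list gene. All 12 tested in control and 11 in Abca4Ko were called lower in rod TRAP, 7 and 6 of them with under 10 scaled counts in every rod TRAP library. Of all genes tested, 38.8% and 33.7% were called lower. Nrp2, a VEGF co-receptor, differed by −3.59 in control (SE 0.19, limma adjusted p = 3.45e-09), Notch1 by −2.38 (SE 0.35, limma adjusted p = 3.95e-05) and Pdgfa by −1.69 (SE 0.26, limma adjusted p = 5.94e-05). Flt4, the receptor VEGFR3, differed by −1.46 (SE 0.20, limma adjusted p = 1.80e-05). Between genotypes 0 of 5 in rod TRAP and 0 of 14 in retina were called, with 0 and 2 at an unadjusted p under 0.05.

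The hypoxia list holds 12 genes of oxygen sensing and its targets, a pathway that acts upstream of Vegfa. It held genes called in both directions between fractions, with 4 of 11 tested genes higher and 4 lower in control rod TRAP and 4 higher and 2 lower of 9 in Abca4Ko. Of the genes tested, 3 in control and 1 in Abca4Ko had under 10 scaled counts in every rod TRAP library and could only be lower. With the authors' scaling the counts were 2 and 7 in control and 2 and 4 in Abca4Ko. Hif1a, the oxygen-regulated transcription factor subunit, was at 482 ± 22.3 TPM in control rod TRAP and 67.8 ± 23.3 TPM in control retina, a log2 difference of 3.19 (SE 0.18, limma adjusted p = 6.48e-09), and 2.54 with the authors' scaling. Epas1 (HIF-2α) was higher by 0.87 (SE 0.12, limma adjusted p = 2.34e-05) and Ndrg1 by 0.80 (SE 0.12, limma adjusted p = 4.86e-05), but with the authors' scaling both calls were lost (0.22 and 0.15, limma adjusted p = 0.135 and 0.210).

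Between genotypes, 1 of the 8 hypoxia genes tested in rod TRAP was called, against 1.13% of all genes tested. In retina 0 of 11 were called, against 0.106%, and 2 had an unadjusted p under 0.05. The lists, too, were chosen with earlier results of these data known, so these counts cannot be weighed against those shares. The called gene was Bnip3, a mitophagy receptor and target of HIF. It had 1143, 1033 and 1194 scaled counts in control rod TRAP and 641, 660 and 895 in Abca4Ko. The groups did not overlap, as for 17.6% of all genes tested (9.07% with Abca4Ko lower). The log2 difference was −0.62 (SE 0.12, limma adjusted p = 0.0318). That call was lost without any one control library or Abca4Ko replicate 2 (limma adjusted p from 0.115 to 0.211), with the authors' scaling (0.0816) and with log2(TPM + 1) (0.245), and was kept without Abca4Ko replicate 3 (−0.75, limma adjusted p = 0.00396). In retina it had 1702, 1744 and 1714 in control and 1606, 1646 and 1777 in Abca4Ko (−0.035, SE 0.15, limma adjusted p = 0.922). Its interaction was −0.61 (SE 0.19, limma adjusted p = 0.407). Hif1a differed by −0.29 in rod TRAP (SE 0.090, limma adjusted p = 0.237) and by 0.61 in retina (SE 0.25, limma adjusted p = 0.3998).

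The list of the norrin pathway and of the barrier holds 12 genes. Of 11 tested in control, 4 were higher and 6 lower in rod TRAP, and of 10 in Abca4Ko 3 were higher and 5 lower, counts that became 1 and 7 and 1 and 5 with the authors' scaling. Of the genes tested, 5 in control and 4 in Abca4Ko had under 10 scaled counts in every rod TRAP library and could only be lower. Tjp1 (ZO-1, a junction scaffold also present in epithelia and photoreceptors) was higher by 2.26 (SE 0.16, limma adjusted p = 4.10e-08, and 1.62 with the authors' scaling) and Fzd4, the norrin receptor, by 1.04 (SE 0.17, limma adjusted p = 9.50e-05). Ctnnb1 (β-catenin) was higher by 0.75 (SE 0.11, limma adjusted p = 3.60e-05). The calls of Fzd4 and Ctnnb1 were lost with the authors' scaling (0.41 and 0.0996). Axin2, a target of β-catenin, was at 0.15 (SE 0.13, limma adjusted p = 0.292), which turned to −0.48 with that scaling. Between genotypes 0 of 6 were called in rod TRAP and 0 of 12 in retina, with 0 and 1 at an unadjusted p under 0.05. Without the library labelled Abca4Ko replicate 3, the calls between genotypes in the 5 lists were again Bnip3 in rod TRAP alone and 0 in retina. Without Abca4Ko replicate 1 in rod TRAP, 2 hypoxia genes were called lower and 1 gene of the norrin list higher. In that fit 621 of all 13104 genes were called.

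The genes with the pattern most like 3 of the 10 were sought over the 12 libraries, among 12076 genes with a mean of at least 5 CPM in some group, by the root mean square distance of centred log2(CPM + 0.5). Nearest to Plvap were Psg16 (0.359), Lmo4 (0.377) and Cacna1s (0.381). Lmo4, a LIM-only transcriptional regulator, had mean CPM of 8.96 in control rod TRAP, 2.90 in Abca4Ko rod TRAP, 30.6 in control retina and 25.6 in Abca4Ko retina. Nearest to Cldn5 were Ly6c1 (0.170), Ackr3 (0.178) and Sst (0.244), which like Cldn5 were at or near 0 in rod TRAP. Nearest to Vegfa were Rac1 (0.191), Gpt2 (0.201) and Tacc1 (0.201). Of the 3 genes nearest to Plvap none is a member of the endothelial or mural lists, while 1 of those nearest to Cldn5 is.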

How the data were processed

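RNA sequencing of retina lysate and of rod TRAP material was analysed in 12 libraries, 3 in each of 4 groups given by the labels. cDNA came from a low-input kit, from 5 ng for lysate and 10 ng for TRAP per the labels. The submitters' processing notes name CASAVA 1.8.2, HISAT2, DESeq2, edgeR and the build GRCm39, without their roles, and the annotation is not given in the sources used here. The authors deposited a table of scaled counts, treated here as a score because each library was multiplied by 1 factor to a common total per fraction and rounded. They also deposited TPM per library, to 1 decimal. Neither is a raw count, so no count model was used, and how the authors assigned reads that map to several places is not given in the sources used here. The true depth of a library is therefore unknown, and counting intervals are approximate.

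TMM factors (trims of 0.3 and 0.05) were computed over all genes with a count. Values were expressed as log2(CPM + 0.5), filtered at 10 scaled counts in at least 3 libraries and fitted with limma 3.58.1 (trend, robust) in R 4.3.3, two-sided, with Benjamini-Hochberg adjustment over all genes tested. Fold changes on this scale understate those of genes near 0. Genotype and fraction fits each used their own 6 libraries, so a genotype and a fraction fit share 3 of them, and the interaction used all 12. The scripts were tested on simulated counts. Counting intervals are exact binomial at 95%, and they and the ratios of summed counts use the authors' totals without TMM factors. Other steps used Python with scipy 1.17.1.

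Rod TRAP and retina libraries that share a number mostly deviated more alike than those with other numbers. The correlations of deviations from group means over genes were 0.549, 0.203 and 0.511 in Abca4Ko and 0.141, 0.142 and 0.154 in control. The exception was Abca4Ko number 2, whose rod TRAP library had 0.278 with a retina library of another number. The replicate block was taken as a pairing of the fractions with this limit. Genes were named by a rule: the 10 genes and Abca4, of each pathway list the genes called between genotypes and the 4 with the highest mean TPM, and the 3 genes nearest in pattern to Plvap, Cldn5 and Vegfa. 1 gene of the rod marker list is not reported here and was left out of the list values. The 10 genes and the lists were chosen with earlier results of these data known. Alternatives were the authors' scaling alone, median of ratios scaling, no filter, a pseudocount of 2 CPM, log2(TPM + 1), the replicate block, all 12 libraries in one fit and leaving out each library. Leaving out both libraries labelled Abca4Ko replicate 3 was added after the data were seen.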

Additional observations from a re-analysis of the deposited data

How the results depend on the processing

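Of the 10 genes, 9 or 10 were called in the control fraction fit under the alternatives run and 7 to 9 in the Abca4Ko one, where the added genes were Pecam1 or genes that the filter had removed. In rod TRAP between genotypes the number called was 1, but 0 with log2(TPM + 1), and 0 to 2 when 1 library was left out. In retina and in the interaction it was 0 throughout. Counts over all genes moved more: in rod TRAP from 148 to 50 with log2(TPM + 1), 94 with all 12 libraries in one fit and 30 to 621 with a library left out, and in retina from 18 to 33 without the filter, 38 with log2(TPM + 1), 46 with the replicate block, 62 with all 12 libraries and 1 to 37 with a library left out. The interaction called 6 genes with log2(TPM + 1). Same-numbered libraries of the 2 genotypes did not deviate together (−0.42 to 0.094), and with the number as a replicate block Plvap was called in rod TRAP at a limma adjusted p = 0.00816, with 1 of the 10 genes called, while 0 were called in retina. Among the 10 genes the block changed no call in the fractions other than that of Pecam1 in Abca4Ko, and the call counts with it were 9 and 8. In the Abca4Ko fractions it moved lower calls from 4 to 5 in the mural list and from 2 to 3 in the hypoxia list, higher calls from 3 to 4 in the norrin list, and all calls from 10280 to 11391. Leaving out a library turned the direction of these uncalled differences, with ranges over the libraries of −0.14 to 0.44 for Flt1 in rod TRAP, and in retina of −0.071 to 0.19 for Plvap, −0.65 to 0.13 for Cdh5, −0.75 to 0.42 for Tek, −0.46 to 0.21 for Pdgfrb and −0.12 to 0.11 for Vegfb. For the interaction the ranges were −0.50 to 0.12 for Pecam1 (the highest without both libraries labelled Abca4Ko replicate 3), −0.34 to 0.52 for Kdr (−0.035 with log2(TPM + 1)), −0.20 to 0.56 for Cdh5, −0.42 to 0.67 for Tek and −0.088 to 0.61 for Pdgfrb. The difference between Plvap and Cldn5 in retina ranged from 0.27 to 1.24 with exact permutation p from 0.2 to 0.4. The causes of these shifts were not tested. Depth limits Cldn5, Cdh5, Tek and Pdgfrb in rod TRAP, where 3 counts over a group amount to 0.0585 CPM.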
